A study of Oryctolagus cuniculus with 18 samples.

Results

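RNA from the same pools of rabbit embryos was amplified in 2 ways before hybridisation, by PCR and by in vitro transcription, which yields antisense RNA (aRNA), and the question addressed here is how far the signal of each cDNA clone depended on that choice. All 18 arrays of the series were used, 9 hybridised after aRNA and 9 after PCR amplification, and each PCR array was set against the aRNA array of its own pool, the array with the same stage and pool number. This gives 9 differences within pools, 3 each at the 4-cell, early morula (morula below) and expanded blastocyst stages. The 4-cell pools were collected at 32 h post coitum from 3, 4 and 2 females and held 53 and 52 embryos in pools 1 and 2, with no number given for pool 3. Morula pools of 34, 35 and 32 embryos came from 2 females each at 58 h, and blastocyst pools of 16, 37 and 60 embryos from 2, 4 and 7 females at 90 h, except that pool 1 was collected at 96 h. The labels state development in vivo for every pool except 4-cell pool 3, where they do not say, and they name no treatment. Each filter carries 2132 spot names, and the 2052 that begin with lca were taken as clones and compared, namely 1017 lcao, 1017 lcap, 15 lcal and 3 lcaq clones.

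Preimplantation embryos yield too little RNA to label directly, so the RNA is amplified first, and the amplified material rather than the RNA itself meets the filter. In vitro transcription copies each cDNA repeatedly from a promoter joined to it, so that copies accumulate in proportion to time. PCR copies the products of earlier cycles as well, so that a small difference in copying efficiency between transcripts is multiplied at each cycle. By the labels' protocols, the PCR arrays received cDNA that had been tailed with poly(dG), amplified in 2 rounds of 18 cycles and labelled with a commercial probe kit. The aRNA arrays received antisense RNA that had been labelled by reverse transcription with random hexamers. All 9 aRNA arrays carry the final digit 1 in their array code and all 9 PCR arrays the digit 2. The amplification, the labelling chemistry and whatever that digit stands for therefore cannot be told apart, and "PCR against aRNA" below means all of them together.

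Neither the deposited files nor the gene table used here pairs clone names with genes, so clones are given by name and no gene function can be attached to them. The markers of embryonic cell types could not be looked up for the same reason. Signal is given on the log2 scale after background correction and quantile normalization of all 18 arrays together, which gives every array the same distribution. A difference is PCR minus aRNA on that scale, relative to the other clones, and a value of 1 is a 2-fold difference. Differences were tested with limma over the 9 pools, and clones with a p under 0.05 after Benjamini-Hochberg adjustment are described as called. A clone is described as above the reference level on an array when its raw intensity there exceeded the 95th percentile of the spots named XWAB. That level was chosen here, because the files mark no spot as background.

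The PCR arrays were dimmer than the aRNA arrays of the same pools. The median raw intensity of the clone spots ran from 36 to 386 on aRNA arrays and from 28 to 123 on PCR arrays. It was lower after PCR in 8 of 9 pools, the exception being 4-cell pool 3 with 50 against 52. On the log2 scale the mean difference was -0.91 ± 0.66 (SD, n = 9; exact two-sided sign-flip permutation test, p = 0.0078125, adjusted over 6 measures 0.0469), where the smallest p this test can give is 0.00390625. Leaving out 1 pool at a time moved that difference between -1.03 and -0.81 and its adjusted p between 0.0469 and 0.0938, so that leaving out any pool other than 4-cell pool 3 or blastocyst pool 3 ended the call. With fewer pools the smallest p this test can give rises, so the lost calls do not measure the weight of single pools. The arrays of blastocyst pool 3 were the dimmest of both amplifications, with medians of 36 and 28.

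The other 5 measures of the arrays did not pass after adjustment. The brightest 1% of spots held 17.7% to 35.7% of the summed raw signal on aRNA arrays and 18.9% to 34.4% on PCR arrays. This share was higher after PCR in 8 of 9 pools, by a mean of 3.54 ± 4.01 percentage points (SD, n = 9; exact permutation p = 0.0430, adjusted 0.0859). The interquartile range of log2 signal was lower after PCR in 6 of 9 pools, with a mean difference of -0.22 ± 0.31 (exact permutation, adjusted p = 0.117). Spots above the reference level made up 10.1% to 25.2% of clone spots on aRNA arrays and 10.2% to 19.8% on PCR arrays. That share differed by -0.964 ± 2.40 percentage points (exact permutation, adjusted p = 0.289). The repeat spots of a clone differed by a median of 0.26 to 1.02 on aRNA and 0.26 to 0.85 on PCR arrays before normalization (exact permutation, adjusted p = 0.272). The share of spots given the value 1 in the files' quality column was lower after PCR in 7 of 9 pools, with a mean difference of -5.71 ± 6.03 percentage points (exact permutation, adjusted p = 0.0859). No source used here says what that column means.

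**Figure D1:**
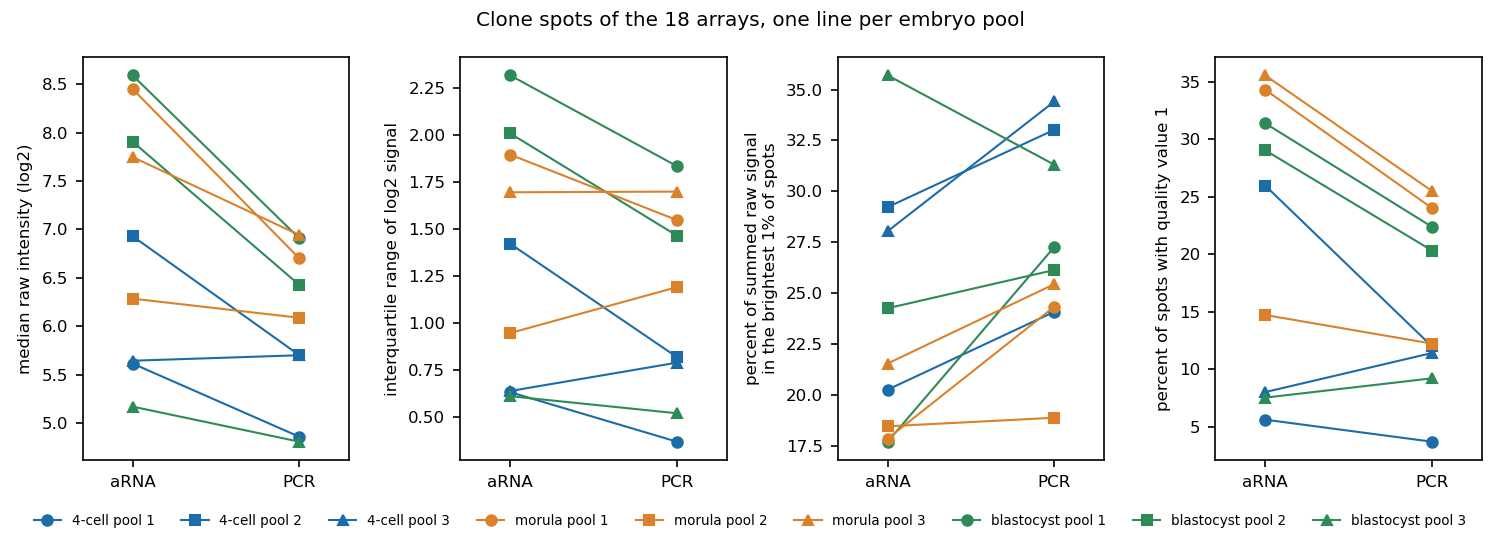
Measures of the 18 arrays before normalization, with a line joining the aRNA and the PCR array of each of the 9 pools. From left to right the vertical axes show the median raw intensity of clone spots (log2), the interquartile range of log2 signal, the percent of summed raw signal in the brightest 1% of spots, and the percent of spots with quality value 1. The median falls from aRNA to PCR in 8 of 9 pools and the share held by the brightest spots rises in 8 of 9.

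Stage separated the arrays more than amplification did. In a principal component analysis of the normalized clones, component 1 held 37.1% of the variance and component 2 held 17.3%, and differences between stages made up 99.2% and 96.8% of them. Component 3 held 12.9% of the variance, and 94.1% of it lay between the amplifications. Every PCR array scored above every aRNA array on component 3, from 7.96 to 16.1 against -16.0 to -6.86. Component 4, with 6.13%, was the first that neither factor led.

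**Figure D2:**
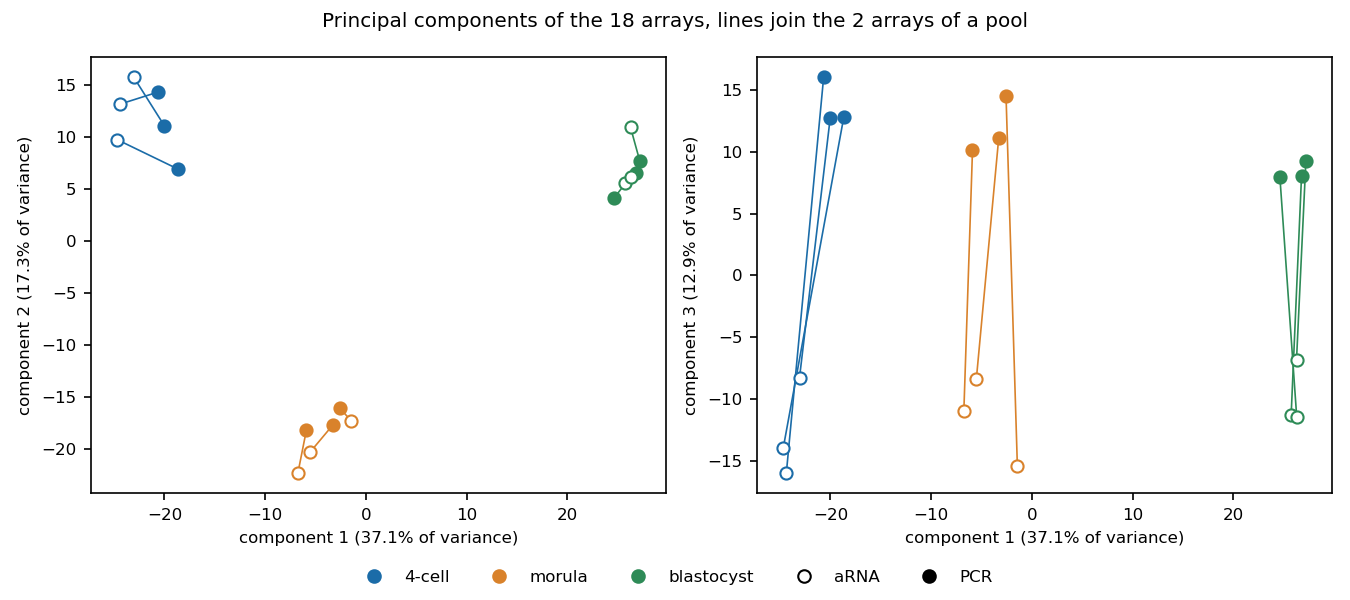
Principal component scores of the 18 arrays, with component 1 on the horizontal axes and component 2 (left) or component 3 (right) on the vertical axes. Open circles are aRNA arrays, filled circles PCR arrays, colours are stages and lines join the arrays of a pool. Components 1 and 2 hold the stages apart, and on component 3 every line runs upward from aRNA to PCR.

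Correlation across clones gave the same order. The arrays here share pools, filters and the brightness of each spot, and clones are not independent replicates, so these coefficients are descriptions. The aRNA and PCR arrays of a pool correlated at r = 0.63 to 0.89, with a median of 0.81. Arrays of different pools of a stage correlated at a median of 0.87 where both were aRNA and 0.84 where both were PCR, and at 0.78 where one was aRNA and the other PCR. Across stages the medians were 0.61 within either amplification and 0.55 between them. Whether sharing the amplification or sharing the pool brought arrays of a stage closer differed by stage. The medians for different pools, both aRNA and both PCR, were 0.76 and 0.74 in 4-cell embryos, against 0.72 within pools. They were 0.88 and 0.78 against 0.87 in morulae, and 0.87 and 0.92 against 0.89 in blastocysts. Of the 9 PCR arrays, 3 had the aRNA array of their own pool as the closest aRNA array, and 9 had one of their own stage. In the reverse direction, 4 of 9 aRNA arrays were closest to the PCR array of their own pool and 9 of 9 to one of their own stage. The deviations of the 2 arrays of a pool from their group means correlated weakly, at r = 0.0022 to 0.33 with a median of 0.14. For arrays of different pools of the stage the median was -0.061. Deviations from a group mean sum to 0 over its pools, so positive values within pools draw the others below 0, and the 2 medians are not independent. The own pairing was the highest of its stage in 5 of 9 pools.

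The spread between pools did not favour one amplification in every stage. The median SD of a clone over the 3 pools was 0.39 after aRNA and 0.38 after PCR in 4-cell embryos. It was 0.25 and 0.35 in morulae, and 0.23 and 0.23 in blastocysts. Among clones above the level on all 6 arrays of a stage it was lower after PCR in each, at 0.40 and 0.38 in 4-cell embryos (93 clones), 0.34 and 0.32 in morulae (171) and 0.31 and 0.23 in blastocysts (172). These are descriptions over clones and carry no test.

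The signal of 394 of the 2052 clones (19.2%) differed between PCR and aRNA. Of these, 190 (9.26%) were higher and 204 (9.94%) lower on PCR arrays. The called differences had a median size of 0.80 on the log2 scale, from 0.40 to 3.46, with a median SE of 0.17 over all clones. They passed 2-fold in 104 clones (5.07%), 59 higher (2.88%) and 45 lower (2.19%) on PCR arrays. The difference had the same sign in all 9 pools for 188 of the called clones (9.16%), and for 206 clones (10%) called or not. Over all clones the median difference was -0.01, with quartiles of -0.27 and 0.24.

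These counts depend on the scaling more than the signs of the called clones relative to the median clone do. With each amplification quantile normalized on its own, so that the dimmer PCR arrays were not brought to the aRNA distribution, the median clone moved to -0.50 and 1248 clones were called, 54 higher and 1194 lower on PCR arrays. Of the 394 called clones, 362 kept their sign under that scaling as it stands, so 32 turned with the shift. Taken relative to the median clone, all 394 called clones kept their sign under that scaling and under median centring, and 393 under cyclic loess. These clones were called on the same arrays for clear differences, so their kept signs are a description and no separate support. The labels also give each array a code number (4, 5 or 6) that no source used here explains, and each number holds 1 pool of every stage. The 3 pools of code 4, 5 or 6 alone gave 128 (6.24%), 23 (1.12%) and 42 (2.05%) calls. Without the pools of code 5, 132 clones were called (73 higher, 59 lower), and without those of code 6, 240 (108 higher, 132 lower).

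Calls were concentrated among the bright clones. Of the 206 clones with the lowest mean signal over the 18 arrays, 0.485% were called, and of the 206 with the highest, 119 (57.8%), with 64 higher and 55 lower on PCR arrays. Of the 1053 clones above the reference level on 0 arrays, 68 were called (6.46%). The background of 19.2% is an average over clones that mostly lie near or below that level. The 45 clones above the level on all 18 arrays form the group least affected by low signal, and 28 of them (62.2%) were called. PCR arrays gave the higher signal for 12 of them and the lower for 16, and 12 passed 2-fold. Their differences ran from -2.11 to 3.06, and 18 of the 45 lay within 0.5 of 0. The balance of directions among them turned with the scaling, to 4 higher and 22 lower with each amplification normalized on its own, 6 and 22 under cyclic loess, and 13 and 12 under median centring. Relative to the median clone, the median of these 45 stood at 0.21 under the scaling used here. It stood at 0.14 with each amplification normalized on its own, 0.09 under median centring and -0.46 under cyclic loess.

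**Figure D3:**
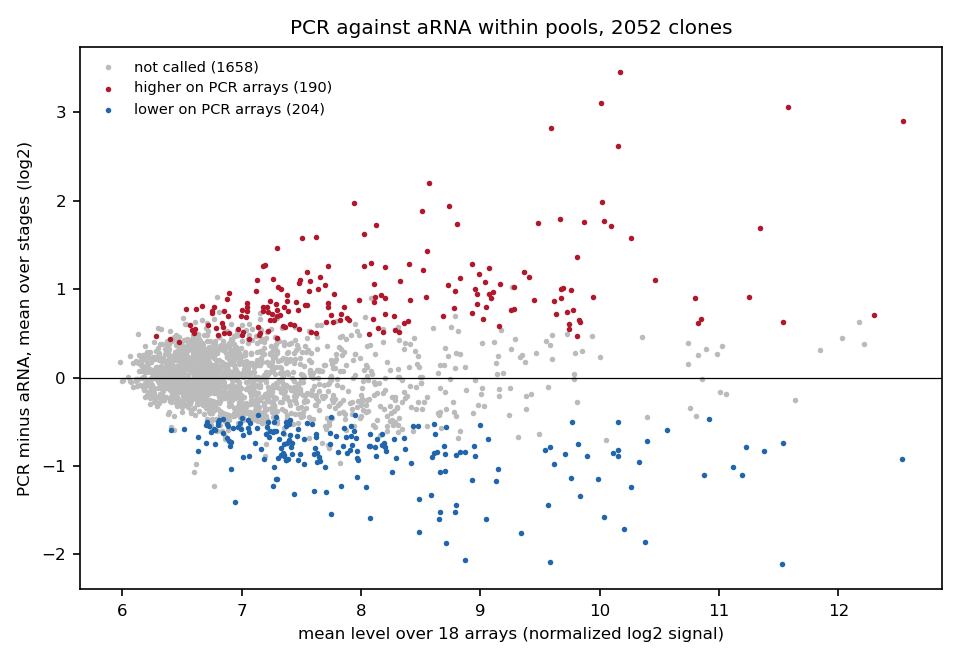
Mean level of each of 2052 clones over the 18 arrays (horizontal axis, normalized log2 signal) against its PCR minus aRNA difference as a mean over stages (vertical axis, log2). Grey points were not called, red points (190) were called higher and blue points (204) lower on PCR arrays. Differences of both signs widen with the level, and the largest, at 3.46, belongs to lcap0025b03.

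Under the scaling used here, the largest differences were rises after PCR. Clones named as leading here and below were picked for the size of their difference, which favours ranges that do not overlap. The share of all clones without overlap was not counted. The signal of lcap0025b03 was 7.72 at its lowest, 8.34 at its median and 9.30 at its highest on the 9 aRNA arrays, and 10.99, 11.78 and 13.26 on the 9 PCR arrays. The 2 ranges did not overlap, and the clone was higher after PCR in all 9 pools, by 1.98 in blastocyst pool 3 and by 4.92 in morula pool 1. Its mean difference was 3.46 ± 0.26 (SE; limma adjusted p = 5.84e-06). Only 5 of its 9 aRNA arrays lay above the reference level, against 9 of 9 PCR arrays. In 4-cell embryos no aRNA array did, so there its signal was at least 9.13-fold higher after PCR. For lcao0049b02 the aRNA values ran from 7.08 through a median of 8.92 to 9.41, and the PCR values from 10.10 through 12.17 to 12.71, again without overlap. Its difference was 3.11 ± 0.28 (SE; limma adjusted p = 2.50e-05), and in 4-cell embryos, where 0 of 3 aRNA arrays lay above the level, at least 5.39-fold.

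Among clones above the level on every array, lcao0036e10 and lcao0049f12 rose most. The signal of lcao0036e10 ran from 8.95 (median 10.30) to 11.05 on aRNA arrays and from 12.27 (median 13.26) to 13.53 on PCR arrays, with no overlap. It was 8.34-fold higher after PCR, with a log2 difference of 3.06 ± 0.16 (SE; limma adjusted p = 5.94e-07) and pool values between 1.97 and 3.88. For lcao0049f12 the aRNA values ran from 8.66 (median 11.45) to 12.48 and the PCR values from 13.53 (median 14.05) to 14.05. It was higher after PCR in 9 of 9 pools, by 2.90 ± 0.16 (SE; limma adjusted p = 5.94e-07), or 7.47-fold. On 8 of the 9 PCR arrays its spot was the brightest of all clone spots and so took the top value that quantile normalization allows, and on 2 of them its raw intensity was 31939, the highest value in the files. Its difference is limited by that ceiling on the PCR side.

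The leading falls after PCR were smaller than these rises under the scaling used here, but not under every scaling. Under cyclic loess lcao0044f06 stood at -2.85, beyond the 2.65 of lcao0049f12, the 2.53 of lcao0049b02 and the 2.36 of lcao0036e10. With each amplification normalized on its own, lcao0040b06 at -2.69 and lcao0044f06 at -2.65 were beyond lcao0036e10 at 2.56 and lcao0049b02 at 2.49. The signal of lcao0044f06 ran from 10.29 (median 12.63) to 13.53 on aRNA arrays and from 8.53 (median 10.22) to 12.96 on PCR arrays. The ranges overlapped between pools, but within each of the 9 pools the PCR array was lower, by between 0.57 and 3.77 on the log2 scale. The mean difference was -2.11 ± 0.23 (SE; limma adjusted p = 8.64e-05), or 4.33-fold lower, and the clone lay above the level on all 18 arrays. For lcao0040b06 the aRNA values ran from 8.92 (median 10.86) to 11.74 and the PCR values from 7.94 (median 8.29) to 10.65. It was lower after PCR in 9 of 9 pools, though by only 0.10 in 4-cell pool 3, and its mean difference was -2.08 ± 0.28 (SE; limma adjusted p = 0.000386). It lay above the level on 9 of 9 aRNA arrays and on 4 of 9 PCR arrays. The bright clone lcao0041b05, above the level on all 18 arrays, was 2.98-fold lower after PCR, with medians of 10.83 on aRNA and 9.01 on PCR arrays and a difference of -1.57 ± 0.22 (SE; limma adjusted p = 0.000467).

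In other bright clones the mean difference was near 0, though single pools could differ in either direction. For lcao0046g09 the median was 10.77 on aRNA and 11.41 on PCR arrays, and the mean difference was -0.01 ± 0.23 (SE), with a 95% interval from -0.51 to 0.48. It was higher after PCR in 4 of 9 pools, and its pool values ran from -1.0 in 4-cell pool 3 to 1.22 in morula pool 2. For lcap0017d10 the mean difference was 0.04 ± 0.17 (SE), with an interval from -0.34 to 0.42, and it was higher after PCR in 6 of 9 pools, with pool values from -1.28 to 0.42. Both clones were chosen because their mean difference was closest to 0, so these values describe them and no test is drawn from them. With each amplification normalized on its own both fell with the median clone, by 0.61 and 0.51 on the log2 scale.

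**Figure D4:**
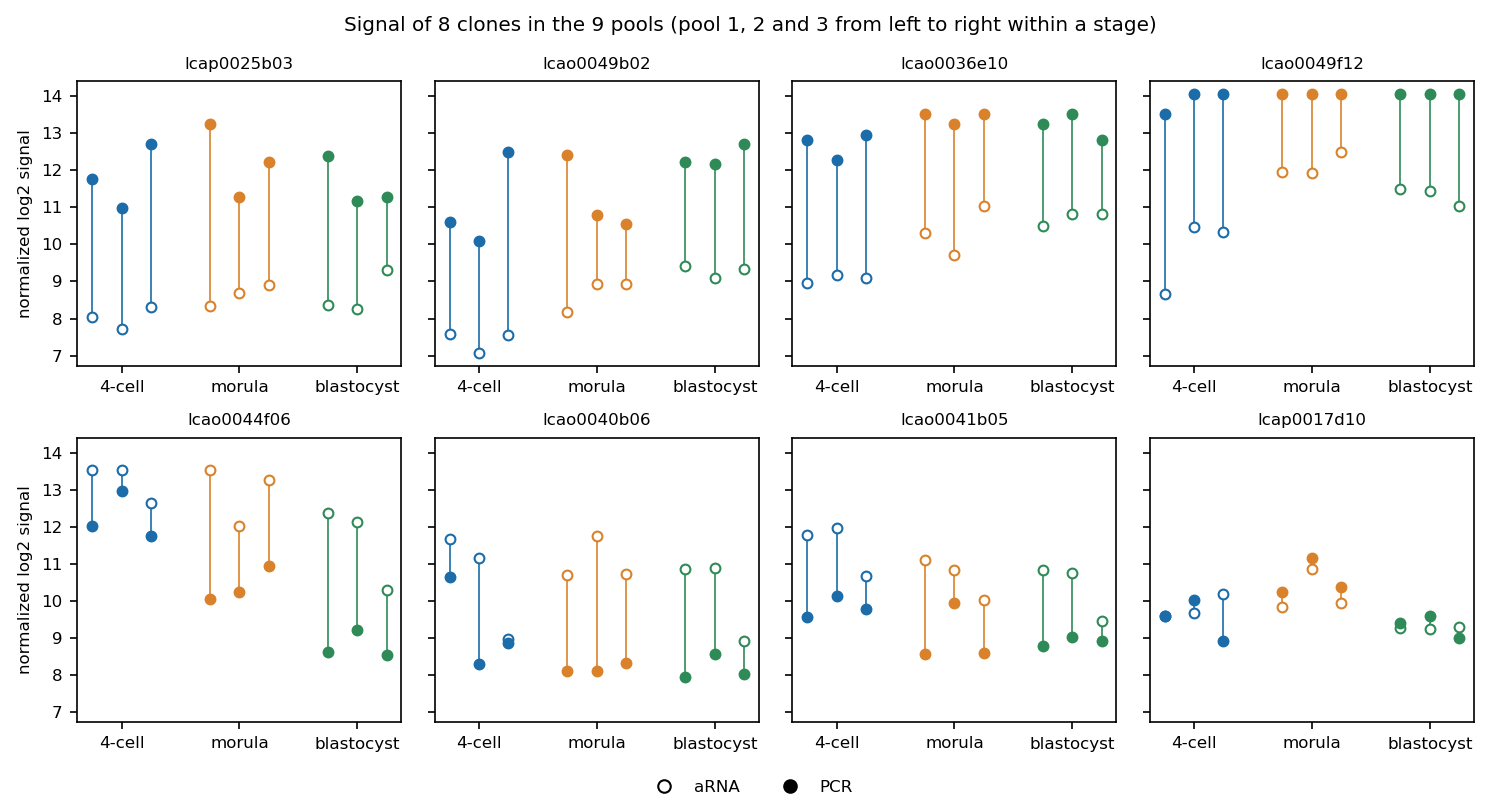
Normalized log2 signal of 8 clones on the aRNA (open circles) and PCR (filled circles) arrays of the 9 pools, with pools 1, 2 and 3 of each stage from left to right and a line joining the arrays of a pool. The upper 4 clones are higher after PCR in all 9 pools, lcao0044f06, lcao0040b06 and lcao0041b05 are lower in all 9, and lcap0017d10 crosses between pools.

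The difference was called most often in 4-cell embryos and least in blastocysts. In the 4-cell pools 169 clones were called (8.24%), 95 higher (4.63%) and 74 lower (3.61%) on PCR arrays. In the morula pools 103 were called (5.02%), 43 higher (2.1%) and 60 lower (2.92%). In the blastocyst pools 57 were called (2.78%), 29 higher (1.41%) and 28 lower (1.36%). These counts are no measure of how much the stages differ, and 1 pool could decide them. Leaving out 4-cell pool 2 took the 4-cell count to 81. Leaving out morula pool 1, 2 or 3 took the morula count to 40, 29 or 47, and leaving out blastocyst pool 1, 2 or 3 took the blastocyst count to 6, 5 or 14. Under median centring the order of the stages turned, with 33, 172 and 164 calls, and under cyclic loess it was 74, 214 and 176.

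Most clones that passed in one stage had the same sign of difference in the others. Of the 169 clones called in 4-cell embryos, 157 had the same sign in morulae and 156 in blastocysts, where 66.3% and 65.3% of all clones did. Of the 103 called in morulae, 96 had the same sign in 4-cell embryos and 98 in blastocysts. Of the 57 called in blastocysts, 51 and 54 had the same sign in 4-cell embryos and morulae. No clone was called in opposite directions in 2 stages. The 20 clones called in all 3 stages were 15 higher and 5 lower on PCR arrays. A further 50 were called in exactly 2 stages and 169 in exactly 1. In all, 239 clones were called in at least 1 stage, and some of these were not called as a mean over stages. Of the 394 clones called as a mean over stages, 187 passed in no single stage. Each stage mean rests on 3 pools, while its SE draws on the spread over all 9. Across clones the stage differences correlated at r = 0.58 between 4-cell and morula, 0.53 between 4-cell and blastocyst and 0.64 between morula and blastocyst, a description over clones that share spots.

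Among clones above the level on all 6 arrays of a stage, lcao0049f12 and lcao0036e10 led the rises in 4-cell embryos. There lcao0049f12 was 16.6-fold higher after PCR (log2 difference 4.06 ± 0.28 SE; limma adjusted p = 1.43e-05), and lcao0036e10 12.3-fold higher (3.62 ± 0.28 SE; limma adjusted p = 2.89e-05). For lcao0049f12, 2 of the 3 PCR values sit at the top of the common distribution, and under median centring, which sets no such top, the difference was 5.00. The falls were led by lcao0030h12, at 12.96, 11.74 and 11.37 on the aRNA arrays and 10.43, 9.57 and 9.26 on the PCR arrays of 4-cell pools 1, 2 and 3, 4.82-fold lower with no overlap (limma adjusted p = 0.00147). For lcao0032a04 the values were 11.57, 11.12 and 10.76 after aRNA and 9.36, 9.44 and 9.60 after PCR, 3.21-fold lower (limma adjusted p = 0.00401).

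In morulae lcap0025b03 had the largest rise of the clones above the level on all 6 arrays, at 8.34, 8.68 and 8.90 on the aRNA and 13.26, 11.29 and 12.21 on the PCR arrays of pools 1, 2 and 3, a 12.2-fold difference (limma adjusted p = 0.00119). It was followed by lcao0036e10 at 8.46-fold (limma adjusted p = 0.000180). The deepest fall was that of lcap0024c02, at 13.14, 12.71 and 11.74 after aRNA and 9.61, 9.60 and 9.24 after PCR, 8.25-fold lower (limma adjusted p = 0.00286). The same clone differed by -0.66 ± 0.43 (SE; limma adjusted p = 0.544) in blastocysts, but the change from morula to blastocyst did not pass its own test (limma adjusted p = 0.670). The second fall in morulae was that of lcao0044f06, at 5.81-fold (limma adjusted p = 0.00387).

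In blastocysts the rises were led by lcao0049b02 and lcao0049f12. The first was at 9.41, 9.11 and 9.33 on aRNA and 12.21, 12.17 and 12.71 on PCR arrays, 8.47-fold higher (limma adjusted p = 0.00844), and the second was 6.61-fold higher (limma adjusted p = 0.000573). Falls were led by lcao0044f06, at 12.38, 12.13 and 10.29 after aRNA and 8.61, 9.20 and 8.53 after PCR, 7.05-fold lower (limma adjusted p = 0.00343). For lcao0030f10 the values were 10.99, 10.83 and 9.88 after aRNA and 8.87, 9.02 and 8.63 after PCR, 3.31-fold lower (limma adjusted p = 0.0103). The groups of arrays did not overlap for any of these 3 clones with values given, which were picked for large differences. Leaving out 1 blastocyst pool took the adjusted p as high as 0.0826 for lcao0049b02, 0.0721 for lcao0044f06 and 0.137 for lcao0030f10, which ended those calls. The call of lcao0049f12 was lost under cyclic loess, at a log2 difference of 1.5 in place of 2.72 (limma adjusted p = 0.0717). With the deposited score table the calls of all 4 clones were lost, with limma adjusted p-values from 0.0614 to 0.156.

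A dependence of the PCR against aRNA difference on stage was called for few clones. limma's F test over the 3 stages called 0 of 2052 clones, with a lowest adjusted p of 0.0774. At an unadjusted p under 0.05 it gave 148 clones (7.21%), where 103 would pass by chance. Between pairs of stages, limma called 0 clones for morula against 4-cell (157 at an unadjusted p under 0.05) and 0 for blastocyst against morula (83 unadjusted), and 2 (0.0975%) for blastocyst against 4-cell (193 unadjusted). Other fits gave up to 22 calls by the F test and up to 44 for a pair of stages, both with array weights. The 2 calls for blastocyst against 4-cell fell to 0 under median centring, cyclic loess, no normexp, offset 16, the level filter, the trended fit, array weights and no replicate block. The level filter leaves out both of these clones, so it could keep neither call. On simulated data of 2052 clones this F test found 5.4% of the stage effects set to 1 and 53% of those set to 2 (log2). The simulated noise was independent with the same SD in every stage, and the effects were set in 4-cell pools only. In that setting most effects of 1 were missed. How small a change these 9 pools could show was not measured.

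The 2 called clones, 1 in each direction (0.0487% each), were both dim. For lcao0019c03 the 4-cell values were 9.06, 9.05 and 9.86 on aRNA and 6.32, 6.88 and 7.08 on PCR arrays of pools 1, 2 and 3, while the blastocyst values were 6.99, 6.92 and 6.53 on aRNA and 6.68, 6.26 and 6.26 on PCR arrays. Its PCR minus aRNA difference was -2.56 in 4-cell embryos and -0.41 in blastocysts, a change of 2.15 ± 0.33 (SE; limma adjusted p = 0.0343). It lay above the level on the 3 aRNA arrays of 4-cell embryos only, so the fall there is at least 1.58-fold. The spot beside it belongs to lcap0025b03, the clone with the largest rise after PCR, and had 16.1 times its mean raw intensity. As means over stages, lcao0019c03 and this neighbour differed in opposite directions, at -1.15 and 3.46. For lcap0017g10 the 4-cell values were 6.98, 6.73 and 6.82 on aRNA and 9.63, 8.43 and 9.24 on PCR arrays, and the blastocyst values 8.34, 7.85 and 8.76 against 8.25, 8.09 and 8.52. Its difference was 2.26 in 4-cell embryos and -0.03 in blastocysts, a change of -2.28 ± 0.35 (SE; limma adjusted p = 0.0343). In 4-cell embryos 0 of 3 aRNA and 2 of 3 PCR arrays lay above the level, a rise of at least 1.38-fold, and an adjacent spot, lcap0017c11, had 13.4 times its intensity. Here too the means over stages had opposite signs, at 0.92 for lcap0017g10 and -0.44 for lcap0017c11. Among the 728 clones whose adjacent spots all stayed under 4 times their own intensity, 0 clones passed this comparison. That set leaves out both called clones.

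The stage with the highest mean signal was the same after both amplifications for most but not all clones. Whether the full order of the stages was kept was not counted. Both amplifications placed the highest mean in the same stage for 1314 of 2052 clones (64.0%). The share was 73.6% of the clones called for amplification, 57.0% of the 1053 clones above the level on 0 arrays, and 80% (36 of 45) of those above it on all 18. Steps between stages had the same sign after both amplifications for 72.0% of clones from the 4-cell stage to morulae, for 73.6% from there to blastocysts and for 74.8% over both steps. The steps were a little narrower after PCR, with SDs across clones at 0.879, 0.943 and 0.931 times those after aRNA. Among the 45 bright clones the ratios were 0.963, 0.944 and 1.00. These shares carry no test, since the clones share the same 18 arrays.

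Few clones lay above the reference level on nearly all arrays of one amplification and on almost none of the other. Above it on 8 or 9 PCR arrays and on at most 1 aRNA array were 3 clones, and 1 clone showed the reverse. This rule passes over clones that reach the level in 1 stage only. An example is lcao0019c03, above it on 3 aRNA arrays and 0 PCR arrays.

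Position on the filter moved with the calls. In blocks 3, 9 and 13 of the 16 printed blocks, 10 of 385 clones were called higher and 74 lower on PCR arrays, against 180 and 130 of 1667 in the other 13. Their median differences were -0.15, -0.18 and -0.32, and the block median lay below 0 in 8, 9 and 9 of the 9 pools. These blocks were chosen after their values were seen, so the contrast carries no test. With every block centred on each array before normalization, 405 clones were called in all. The 3 blocks held 31 higher and 40 lower, and the other 13 held 164 and 170. Centring sets the block medians equal, so a more even split follows largely by construction and is a description only.

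**Figure D5:**
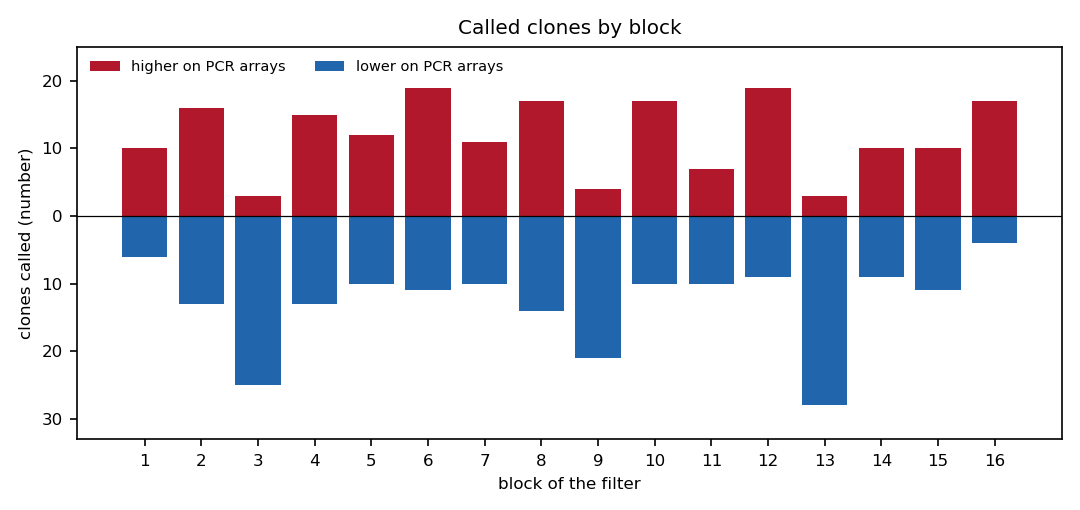
Number of clones called in each of the 16 blocks of the filter (horizontal axis). Red bars count clones higher and blue bars, drawn downward, clones lower on PCR arrays. Blocks 3, 9 and 13 stand out, with 3, 4 and 3 clones higher and 25, 21 and 28 lower.

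Adjacent spots moved with them as well. Of the 1324 clones with an adjacent spot at 4 times their raw intensity or more, 180 were called (13.6%), and 133 of the 180 (73.9%) differed in the direction of that neighbour, as did 64.4% of all such clones. Among the 728 clones without one, 214 were called (29.4%), 92 higher and 122 lower. Of the leading clones above, only lcao0019c03 and lcap0017g10 have a neighbour of that brightness. The part of neighbours in the calls was not tested.

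Clones of 1 group of names leaned toward PCR. Of the 31 clones whose names begin with lcao0049, among them lcao0049b02 and lcao0049f12, 14 were called higher and 2 lower on PCR arrays, with a median difference of 0.51. They were bright, with a median level of 9.55, and 10 of them lay above the reference level on all 18 arrays. They lie in 4 of the 16 blocks, and 25 of the 31 had a mean difference above 0. Among the 183 of the 206 brightest clones whose names begin otherwise, the calls were balanced, at 52 higher and 53 lower. Relative to the median clone the group stood at 0.52, and at 0.41, 0.56 and 0.09 with each amplification normalized on its own, under median centring and under cyclic loess. The calls under these scalings were 9 higher and 8 lower, 15 and 2, and 13 and 4, so the lean in the counts was lost under the first. By name prefix, 110 lcao clones were higher and 81 lower, 74 lcap clones higher and 122 lower, 6 lcal clones higher and 1 lower, and 0 of 3 lcaq clones were called. In blocks 3, 9 and 13, 6 lcap clones were higher and 46 lower, and 4 lcao clones were higher and 28 lower. In the other 13 blocks, 68 lcap clones were higher and 76 lower, and 106 lcao clones were higher and 53 lower. No source used here says what the prefixes or the digits of a name stand for, and the lcao0049 group was singled out after its values were seen.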

How the data were processed

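The deposited values are linear spot intensities from AGScan, measured in circles of constant diameter per the file headers, with no background column and 2304 spots per array. A deposited table of the whole series gives each name a score, which correlated with the log2 raw intensity of the same array at r = 1 after rounding; column medians ran from -0.21 to -0.05 with SDs of 0.94, its log base and scaling stay unknown, and it served as an alternative. No source used here says how the authors made it. The table has 0 columns of other samples.

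Background was corrected over all spots by normexp in limma with an offset of 50. Values were log2 transformed, quantile normalized over 2087 clone spots of 18 arrays, and averaged per clone (16 clones were spotted more than once). The 9 within-pool differences were fitted with lmFit and eBayes on 3 stage means, with p-values adjusted over 2052 clones. The stages share 1 estimate of the spread of each clone, so the SE of a stage is not the spread of its own 3 pools. Array measures were tested with the 512 sign patterns of 9 pools. On simulated data (2052 clones, 200 changed, 5 runs), the test of the mean found 84% of the differences set to 1 and 99% of those set to 2 (log2), with 5.66% false calls. The simulated noise was independent between arrays, with the same SD of a clone in every pool, so these shares hold for that setting.

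The pairing comes from the labels, in which both arrays of a pool share the embryos and the extract. Deviations from group means correlated above 0.1 in 7 of 9 pools, and the own pairing was the highest of its stage in 5 of 9. Pools are separate batches of embryos, and the number of arrays limits precision.

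Clones were named by a rule: 2 per direction with the largest called difference in 9 of 9 pools, over all clones and among those above the reference level on all 18 arrays; 2 per direction in each stage above the level on its 6 arrays; those called for stage dependence; and 2 closest to 0. Members, lists and rules were chosen with earlier results of these data known. Gene lists could not be tested without gene names. Where a clone lay above the level on no array of a group, a fold is given as a lower bound against the lowest normalized signal above the level on each array, or the clone's own if higher. Alternatives changed the scaling, background, filters, fit, block and pools; 3 were added after seeing the data. Versions were R 4.3.3, limma 3.58.1, pandas 2.3.3 and matplotlib 3.10.9.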

Additional observations from a re-analysis of the deposited data

Results flagged for a closer look

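Among the 34 sets of 9 values examined (each array measure by amplification and by difference, the 9 differences of each named clone, and the correlations within pools), 2 held a value far from the rest, where chance gives about 1 in 20. On the aRNA array of morula pool 2, 25.2% of clone spots lay above the reference level, against 10.1% to 16.1% on the other aRNA arrays; the PCR array of the same pool was also the highest of its group, at 19.8%. For lcap0017d10 the PCR minus aRNA difference was -1.28 in 4-cell pool 3 and between -0.28 and 0.42 in the other 8 pools. The change of the PCR minus aRNA difference from 4-cell to blastocyst was called for lcao0019c03 (2.15) and lcap0017g10 (-2.28), by limma's test of that change over 9 pools (adjusted p = 0.0343 for both). Leaving out 1 pool took their adjusted p as high as 0.258.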

How the results depend on the processing

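The number of arrays limits every count below, 3 pools in each stage, and the raw medians of 28 to 386 mean that most clones lay near the reference level. Of 625 recalculations of named clones, 580 kept direction and side of the threshold, 43 kept the direction but missed the threshold, 1 gained it (lcao0046g09, -0.61) and 1 turned (lcap0017d10, -0.51), both under quantile normalization within each amplification. Of 206 recalculated counts, 139 stayed within 1.5 times. These 139 include counts of 0 that stayed 0, for the F test, morula against 4-cell and blastocyst against morula. The share is therefore no measure of how stable the other counts were. The cause was not tested in any case below, except where clones or pools were left out, which by construction leaves fewer to test.

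Counts below run in the order mean over stages, 4-cell, morula and blastocyst, where they moved by over 1.5 times. Quantile normalization within each amplification gave 1248 (54 higher, 1194 lower on PCR arrays), 634 (42 and 592), 476 (20 and 456) and 397 (15 and 382). Median centring gave 33, 172 and 164 in the stages, with 516 (271 and 245) for the mean, and cyclic loess 74 (21 and 53), 214 and 176, with 464 (214 and 250). Array weights (0.332 to 3.85) gave 597 (269 and 328), 87, 457 and 494. For clones above the level on at least 9 arrays the counts were 140 (83 and 57) and, in 4-cell embryos, 90 (58 and 32). Morulae gave 63 with the deposited score table. Blastocysts gave 29 without normexp (17 and 12), 27 with offset 16 (16 and 11), 22 with the score table (14 and 8) and 32 with a trended robust fit. The mean gave 231 (100 and 131) of the 728 clones not beside a bright spot, 132 without array code 5 and 240 without array code 6. Without blocks 3, 9 and 13 it gave 316 of 1667 clones, within 1.5 times, though with another split of directions (184 and 132).

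With no replicate block, the 18 arrays gave 355 calls for the mean and 35 in blastocysts; with the pool number as a further block it gave 412, and the pairing changed no other count by over 1.5 times apart from the stage contrasts that follow. Stage dependence by the F test gave 1 call under median centring, 2 under loess, 22 with array weights, 5 with the pool as a random block (correlation 0.131) and 2 with blocks centred. Morula against 4-cell gave 3 under loess, 4 with the random block and 5 with blocks centred; blastocyst against morula gave 1 under median centring, 4 under loess and 44 with array weights. Blastocyst against 4-cell gave 4 with the random block, 1 with the score table, and 0 under median centring, loess, no normexp, offset 16, the level filter, the trended fit, array weights, no replicate block and the neighbour filter.

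Leaving out 1 pool moved the mean count between 274 and 452, the 4-cell count between 81 and 190, the morula count between 29 and 140, the blastocyst count between 5 and 83, the F test between 0 and 4, morula against 4-cell between 0 and 1, and blastocyst against 4-cell between 0 and 3. It moved the raw median between -1.03 and -0.81, the quality share between -6.85 and -4.68 and the share of the brightest 1% between 2.79 and 4.53, the last 2 passing at an adjusted p of 0.0469 without 4-cell pool 3 and blastocyst pool 3.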

Other observations

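The 80 names outside the clones (217 spots with the prefixes LMAA, XWAB and XVAB, with no role stated in the sources used here) were put on the same scale and tested among themselves with limma. Of these, 12 (15%) were called, 10 higher and 2 lower on PCR arrays, and 20 passed an unadjusted p under 0.05. The calls were 11 of 76 XWAB names, 1 of 3 LMAA names and 0 of 1 XVAB name, and the differences of XWAB names ran from -0.72 to 0.92. The reference level used above rests on XWAB spots of the same array, so these differences bear on it.

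Of the 16 clones spotted more than once, the spots of 4 all had the same sign of PCR minus aRNA, and 3 of the 16 were called as averages, 2 of them with the same sign in every spot. The median range between the spots of such a clone was 0.63 on the log2 scale.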
